A study of Rattus norvegicus with 16 samples.

Results

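The genes described here are 43 protein-coding genes of the neuronal cell adhesion families in the rat: cadherins, protocadherins, contactins and contactin-associated proteins, neurexins, neuroligins, leucine-rich repeat transmembrane proteins (LRRTMs), SynCAMs and NCAM. They were chosen by gene symbol and biotype from the 8671 genes of a deposited RNA immunoprecipitation (RIP) table, 8420 of which are protein-coding. The table holds only genes past the authors' threshold of a log2 fold above 1, so immunoprecipitate (IP) above input is a condition of entry and not a finding. Of the 44 symbols that match the name pattern, Cntnap2 is annotated there as processed_transcript and was left out. The RefSeq gene table (assembly GRCr8) holds 102 protein-coding symbols of the same pattern, among them all 43 described here.

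The tissue was the dorsal horn of the spinal cord of rats with the genotype WT. N4-acetylcytidine (ac4C, an acetylated cytidine of RNA) was mapped by IP in 3 replicates with bone cancer pain (CIBP) and in 3 normal controls, which the labels call biological replicates. Each IP library had an input library, and each pair gave 1 peak list. The second RIP used 2 IP and 2 input libraries from bone cancer pain, without controls. Its labels repeat the ac4C kit protocol and name no other antibody target. The bone cancer pain lists carry the abbreviation CFA in their names while the labels say CIBP, and the groups follow the labels. Strain, sex, age, the tumour cells, the time of sampling and whether a replicate is 1 rat are not given in the sources used here. The p-values below therefore measure the spread between lists, which may in part be technical.

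Adhesion proteins of these families span the gap between neighbouring cell membranes and help to decide which neurites meet, form synapses or are wrapped by myelin. Cadherins and most protocadherins bind copies of themselves through calcium-dependent extracellular repeats. Presynaptic neurexins bind postsynaptic neuroligins and LRRTMs, while some contactins and contactin-associated proteins organise the contact between axon and myelin around the node of Ranvier. The dorsal horn, where sensory fibres from the body make their first central synapses, is built of such contacts.

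The clustered protocadherins are the family whose regulatory sequence sets its members apart. In the alpha and gamma clusters each variable exon has its own promoter and is joined to constant exons shared within that cluster. There the choice of promoter decides the isoform. The 250 bases before the gene start of 3 gamma protocadherins are shown because all 3 carry the letters GACTCTGNGNGCCGCTGT, set in capitals, at different distances from the start. The sequences are from RefSeq, build GRCr8, plus strand, at chr18:29794002-29794251 for Pcdhga7, chr18:29825676-29825925 for Pcdhga10 and chr18:29883995-29884244 for Pcdhgc3.
Pcdhga7: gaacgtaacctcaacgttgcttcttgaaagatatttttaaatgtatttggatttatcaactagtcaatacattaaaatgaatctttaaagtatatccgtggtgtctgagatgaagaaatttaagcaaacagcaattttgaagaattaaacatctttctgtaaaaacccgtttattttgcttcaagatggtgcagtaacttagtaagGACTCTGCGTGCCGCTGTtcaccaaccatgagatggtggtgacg
Pcdhga10: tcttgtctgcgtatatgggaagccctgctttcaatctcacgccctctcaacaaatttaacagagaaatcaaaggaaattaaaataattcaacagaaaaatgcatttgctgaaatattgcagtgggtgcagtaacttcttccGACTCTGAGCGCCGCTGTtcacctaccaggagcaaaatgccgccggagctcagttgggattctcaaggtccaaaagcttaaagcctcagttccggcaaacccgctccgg
Pcdhgc3: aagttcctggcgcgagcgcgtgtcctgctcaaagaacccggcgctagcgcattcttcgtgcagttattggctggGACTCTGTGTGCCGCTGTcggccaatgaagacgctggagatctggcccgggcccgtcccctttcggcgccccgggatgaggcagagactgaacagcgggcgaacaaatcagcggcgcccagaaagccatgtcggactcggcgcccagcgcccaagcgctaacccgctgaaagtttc
The letters end 26 bases before the start of Pcdhga7, 91 bases before that of Pcdhga10 and 158 bases before that of Pcdhgc3. Searched on both strands, they occur in 5 of 33469 RefSeq promoter windows of this length (0.0149%), which are Pcdhga7, Pcdhga10, Pcdhga12, Pcdhgb8 and Pcdhgc3, and so in 5 of the 35 clustered protocadherin windows. They are the run of 18 letters in which these 3 windows agree best, with N where they differ, so the count describes the match and tests nothing. The short run CGCT inside them is common, with a match in 55.1% of all windows and in 27 of 35 clustered protocadherin windows. The fourth clustered member, Pcdha4, has no match to the long run in its window. Promoter windows were matched for 33 of the 43 genes. Sequences of the ac4C peaks need the rn6 genome and are not shown.

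Depth could not be read from the files, which hold no read totals. The 3 bone cancer pain lists held 50417, 2416 and 1173 peaks and the 3 control lists 1208, 1802 and 1418 peaks. Bone cancer pain list 1 stood apart: 49204 of its peaks (97.6%) have a fold enrichment of exactly 10.6 and a false discovery rate (FDR) of 0.0562. At an FDR of at most 0.05 the 6 lists were of like length, with 919, 1240 and 899 peaks in bone cancer pain and 916, 1074 and 1003 peaks in controls. Counts are therefore given both for all peaks as deposited and at that FDR limit. Of 38 cell type markers, 26 are in the RIP table, which was read only in bone cancer pain. They include 5 of 5 inhibitory dorsal horn markers (Gad1, Gad2, Slc32a1, Slc6a5 and Pax2), 2 of 5 excitatory ones (Slc17a6 and Tac1), 5 of 5 for astrocytes and 5 of 5 for oligodendrocytes, whose input signals reach 1137. Of the general neuron markers 2 of 5 were present (Rbfox3 and Elavl4), with 2 of 3 for precursors and 3 of 4 for microglia. Of the markers listed for sensory ganglia 1 of 3 was present (Prph, without Isl1 and Avil), and of those for meninges 1 of 3 (Dcn). Prph alone is not read as a sign of ganglion tissue. A marker without a row did not pass the authors' selection. The lowest input signals in the table were 1.00 in either library, so absence may reflect the fold, the p-value or a low signal. It was not read as any of these. Marker levels in the control rats were not analysed here, so their part in the differences below was not tested.

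In the RIP of bone cancer pain dorsal horn, the 43 adhesion genes had a median log2 fold of IP over input of 2.33 in the authors' deposited table (range 1.03 to 3.17), against 2.40 for all 8671 genes. Of the 43, 20 lay above the table median and 23 below it, where the table as a whole has 50.0% above. IP signal exceeded input signal in both pairs for all 43, as the threshold makes likely. The trans-synaptic families lay low: the 13 neurexins, neuroligins, LRRTMs and SynCAMs had a median of 1.90, with 3 above and 10 below the table median. The 22 cadherins and protocadherins had a median of 2.44, with 13 above and 9 below, and the 8 contactins, contactin-associated proteins and NCAM had 2.41, with 4 on either side. In bulk tissue, fewer cells of a type and less RNA per cell cannot be told apart, and this holds for every signal below. The signals are normalised values of unstated unit, and whether they are per transcript length is not given, so the order of genes by signal is that of the deposited values and not of transcript levels. The 13 trans-synaptic genes had a median input signal of 9.45 and the 22 cadherins and protocadherins one of 2.65; the part of this in the fold was not tested.

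**Figure D1:**
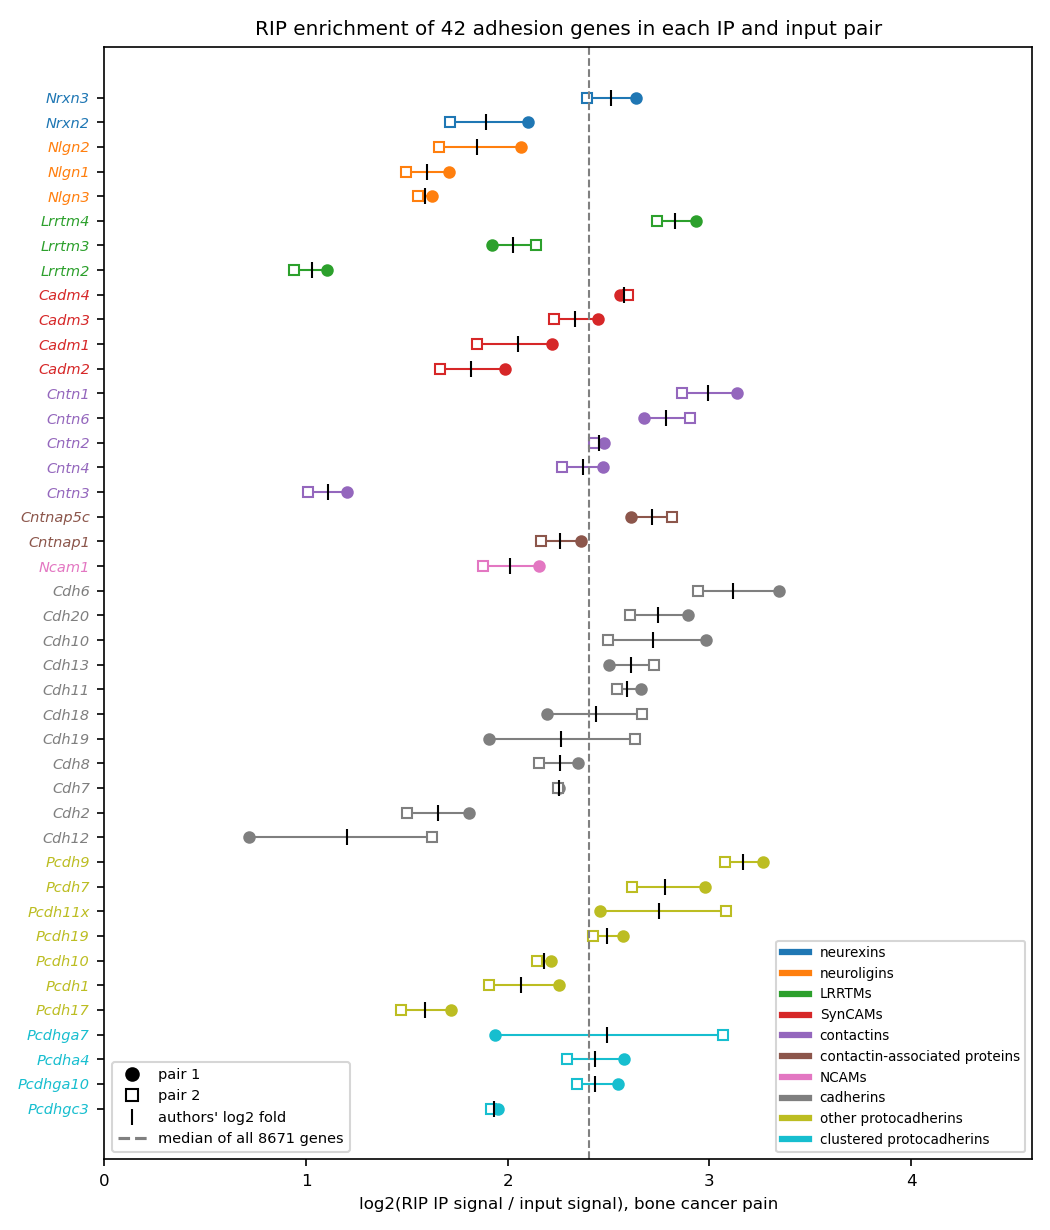
Each row is 1 of 42 genes, coloured by family; the circle and the square mark log2 of IP over input signal in pair 1 and pair 2, the black tick is the authors' log2 fold, and the dashed line is the median of all 8671 genes (2.40). Neurexins, neuroligins, LRRTMs and SynCAMs lie mostly left of the line, and Cdh12 and Pcdhga7 show the widest gaps between pairs.

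The neurexins are presynaptic receptors with many splice forms. Nrxn3 had IP signals of 41.7 and 40.7 in pairs 1 and 2, against input signals of 6.69 and 7.74, and an authors' log2 fold of 2.51. Its IP values were close together and far above both inputs. Nrxn3 lay above the table median and Nrxn2 below it, with a log2 fold of 1.89.

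Among the neuroligins, the postsynaptic partners of neurexins, all 3 lay below the table median. Nlgn1, known mainly from excitatory synapses, had IP signals of 18.8 and 18.1, against inputs of 5.74 and 6.41, and a log2 fold of 1.60. Nlgn3, found at excitatory and inhibitory synapses in mice, had IP signals of 32.8 and 33.5, against inputs of 10.6 and 11.4, and a log2 fold of 1.59. In both genes each IP value lay well above both inputs. Nlgn2, the neuroligin of inhibitory synapses, had a log2 fold of 1.85.

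LRRTMs are postsynaptic proteins that also bind neurexins, and they spread over almost the whole range of the 43 genes. Lrrtm4 had IP signals of 14.7 and 13.9, against inputs of 1.92 and 2.08 (log2 fold 2.83). Lrrtm2 had the lowest log2 fold of all 43 genes, 1.03, with IP signals of 17.1 and 14.6, against inputs of 7.95 and 7.60. In both genes the 2 pairs gave close ratios, within 0.2 on the log2 scale. Lrrtm3 lay between them at 2.03.

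SynCAMs, encoded by Cadm genes, are immunoglobulin-type adhesion proteins of synapses and of axon and glia contacts. Cadm3 had IP signals of 136.5 and 136.6, against inputs of 24.98 and 29.14, and a log2 fold of 2.33. Cadm1 had IP signals of 35.3 and 26.7, against inputs of 7.57 and 7.40, and a log2 fold of 2.05. Cadm4, a SynCAM of myelinating glia, was the 1 of 4 above the table median, at 2.58, and Cadm2 had the lowest value at 1.82.

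Cntn1, the axonal contactin of the junctions beside the node of Ranvier, had the highest input signal of the 43 genes. Its IP signals were 252.4 and 250.9, against inputs of 28.7 and 34.4, and its log2 fold was 2.99, among the 5 highest. Cntn6 had IP signals of 8.61 and 8.78, against inputs of 1.35 and 1.17, with a log2 fold of 2.79. Cntn3 was near the bottom, with IP signals of 3.59 and 3.13, against inputs of 1.56 and 1.55, and a log2 fold of 1.11. The contactins thus spread widely, with Cntn1 among the 5 highest and Cntn3 among the 5 lowest of the 43 genes. Cntn2, a contactin of the neighbouring juxtaparanodes, and Cntn4 were close to the table median at 2.45 and 2.37.

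Cntnap1, the partner of Cntn1 on the axon, had IP signals of 36.6 and 38.1, against inputs of 7.11 and 8.48 (log2 fold 2.26). Cntnap5c had IP signals of 6.60 and 8.14, against inputs of 1.08 and 1.16 (log2 fold 2.71). Its inputs stood just above the lowest input signals of the table, 1.00 in either library. Ncam1, the neural cell adhesion molecule of neurons and glia, had IP signals of 124.4 and 122.1, against inputs of 27.9 and 33.2, and a log2 fold of 2.01.

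The 11 cadherins ranged in log2 fold from 1.20 to 3.12, with a median of 2.44. Cdh2 (N-cadherin), the main classical cadherin of the nervous system, had the highest input of the family: its IP signals were 49.0 and 45.5, against inputs of 14.0 and 16.1, and its log2 fold was 1.65. Cdh6 had IP signals of 20.5 and 21.9, against inputs of 2.02 and 2.84, and a log2 fold of 3.12, with Pcdh9 alone above it among the 43 genes. In both genes the IP values lay close together; Cdh6 was the highest of the family, and only Cdh12 lay below Cdh2. Cdh12 had IP signals of 3.74 and 5.87, against inputs of 2.27 and 1.90, so its log2 ratio was 0.72 in pair 1 and 1.63 in pair 2 (authors' log2 fold 1.20). Cdh19, a cadherin of glial lineages, had IP signals of 6.48 and 8.02, against inputs of 1.73 and 1.30, the lowest mean input of the family, and a log2 fold of 2.26. Of the 11 cadherins, Cdh12 and Cdh19 had the widest gaps between pairs. The remaining cadherins were Cdh20 (2.75), Cdh10 (2.72), Cdh13 (2.61), a cadherin held to the membrane by a lipid anchor, Cdh11 (2.59), Cdh18 (2.44), Cdh8 (2.26) and Cdh7 (2.25).

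Of the 7 protocadherins outside the clusters, Pcdh9 had the highest log2 fold of all 43 genes, 3.17. Its IP signals were 122.9 and 121.5, against inputs of 12.8 and 14.4. Pcdh7 had IP signals of 37.3 and 37.8, against inputs of 4.73 and 6.18, and a log2 fold of 2.78. Both genes stood high in each pair. Pcdh17, one of the protocadherins that recruit the actin-regulating WAVE complex, had IP signals of 21.4 and 20.4, against inputs of 6.49 and 7.34, and its log2 fold of 1.59 was among the 5 lowest. Pcdh11x had the lowest input of these 7, 1.58 and 1.09, with IP signals of 8.69 and 9.24 and a log2 fold of 2.75. Pcdh10, Pcdh1 and Pcdh19 had log2 folds of 2.18, 2.07 and 2.49.

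Clustered protocadherins can share reads through the constant exons of their cluster (alpha for Pcdha4, gamma for the other 3), and counting may split such reads, so their values are uncertain. Pcdhgc3 had IP signals of 32.7 and 32.7, against inputs of 8.44 and 8.65, and a log2 fold of 1.93. Pcdhga7 had IP signals of 6.20 and 8.82, against inputs of 1.62 and 1.05, so that its log2 ratio was 1.94 in pair 1 and 3.07 in pair 2. Pcdha4 and Pcdhga10 both had 2.43. Over all 43 genes the pairs differed by more than 0.5 on the log2 scale in 4 (Cdh12, Cdh19, Pcdh11x and Pcdhga7), and 3 of these are among the 9 genes with a mean input signal under 2.

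Whether more of these genes carry ac4C in bone cancer pain was read from the number with a peak in each list. As deposited, 36, 18 and 5 of the 43 were marked in bone cancer pain lists 1 to 3, against 7, 6 and 11 in control lists 1 to 3. In the same lists 81.1%, 19.9% and 9.88% of all table genes had a peak in bone cancer pain, and 10.5%, 15.6% and 12.6% in controls. The means were 19.7 ± 15.6 in bone cancer pain and 8 ± 2.65 in controls (SD, n = 3 each), and an exact two-sided permutation test gave p = 0.4, with 0.1 the smallest p that 3 against 3 lists allow. The groups overlapped, the difference of 11.7 was 3.5 without bone cancer pain list 1 and 19 without list 3, and 31 of the 36 genes of bone cancer pain list 1 had no peak at the FDR limit. At an FDR of at most 0.05 the counts were 5, 10 and 3 in bone cancer pain, against 7, 4 and 8 in controls, with means of 6 ± 3.61 and 6.33 ± 2.08 (SD, n = 3 each; exact permutation p = 1). The share of table genes at that limit was 8.59%, 11.3% and 7.85% in bone cancer pain and 8.23%, 9.58% and 9.31% in controls. The number of genes with a peak did not differ between groups by more than the spread between lists under either reading, and its direction turned with the FDR limit.

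**Figure D2:**
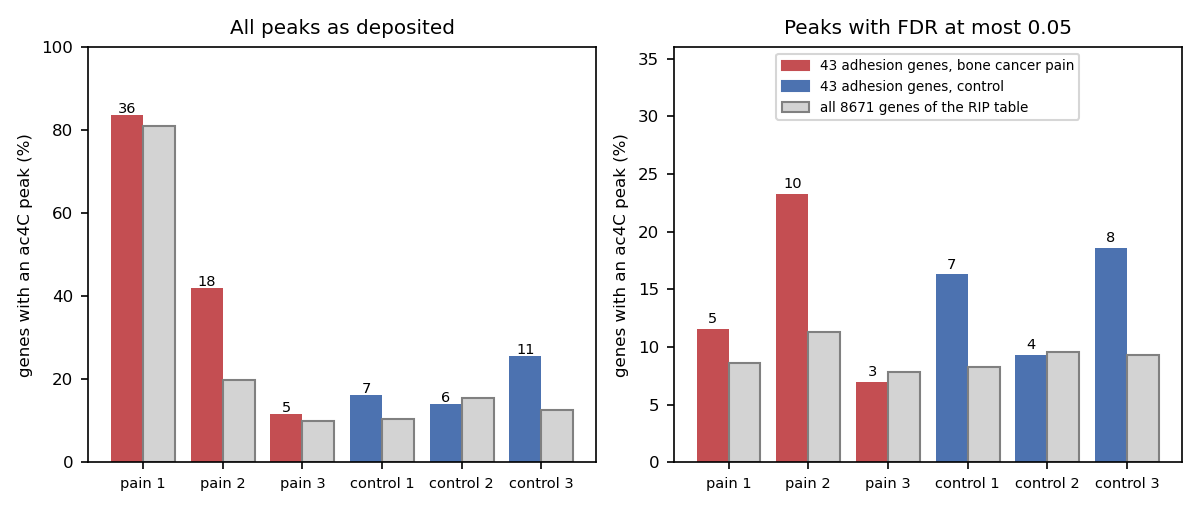
Bars give the percentage of genes with an ac4C peak in each list, for the 43 adhesion genes (red in bone cancer pain, blue in controls, with the number of genes above) and for all 8671 genes of the RIP table (grey). As deposited, bone cancer pain list 1 reaches 36 adhesion genes; at an FDR of at most 0.05 the bone cancer pain lists hold 5, 10 and 3 and the control lists 7, 4 and 8.

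The numbers of peaks behaved alike. The adhesion genes held 153, 22 and 7 peaks in the bone cancer pain lists, against 7, 7 and 11 in the control lists; 147 of the 153 in list 1 had the repeated fold of 10.6, and all 11 peaks of list 2 above the FDR limit had an FDR of 0.127. On the log2(number + 1) scale the mean was 4.93 ± 2.16 in bone cancer pain and 3.19 ± 0.338 in controls (SD, n = 3 each; exact permutation p = 0.4). Peaks at the FDR limit numbered 5, 11 and 5 in bone cancer pain and 7, 5 and 8 in controls, or 21 and 20 in all. These 41 peaks had exonic widths of 150 to 241 bases, and 11 of the 21 in bone cancer pain and 9 of the 20 in controls were made of 2 or more exon blocks.

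At the FDR limit 26 of the 43 genes (60.5%) had a peak in at least 1 list, against 36.8% of the table, and 8 (18.6%) in at least 2 lists, against 12.6%. Genes with such a peak had a median mean input signal of 7.20 (n = 26), against 2.43 for those without (n = 17), and the 43 together had 5.45, against 3.35 for the table. Of the 22 genes with the higher input signals 16 had a peak at the limit, and of the 21 with the lower input signals 10. The part of signal level in these shares was not tested. As deposited, each of the 43 had a peak in at least 1 list, against 90.4% of the table, and 26 had one in at least 2 lists (60.5%, against 39.5%).

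Each fold enrichment is the authors' own value and describes a peak within its list. Some folds also recurred among peaks that passed the limit. In bone cancer pain, Lrrtm4 and Pcdh19 shared 52.9 in list 1. In list 2, Cadm1 and Nlgn1 shared 36.6, and Cntnap1 and Lrrtm3 shared 20.9. In control list 3, Cadm1 and Pcdh9 both had 22.3, and Cdh19 and Cdh2 both had 16.7. The cause of these repeats was not tested, and equal folds do not rank the genes. At the FDR limit the median fold of the adhesion gene peaks was 15.9, 12.5 and 2.41 in bone cancer pain lists 1 to 3, where the peaks of all table genes had medians of 15.9, 20.9 and 26.5. In control lists 1 to 3 it was 20.0, 19.6 and 25.1, where all table genes had 13.4, 15.2 and 22.3. The adhesion gene median thus lay at or below that of its own list in bone cancer pain and above it in each control list. This reading was chosen after the values were seen, rests on 5 to 11 peaks a list and was not tested.

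**Figure D3:**
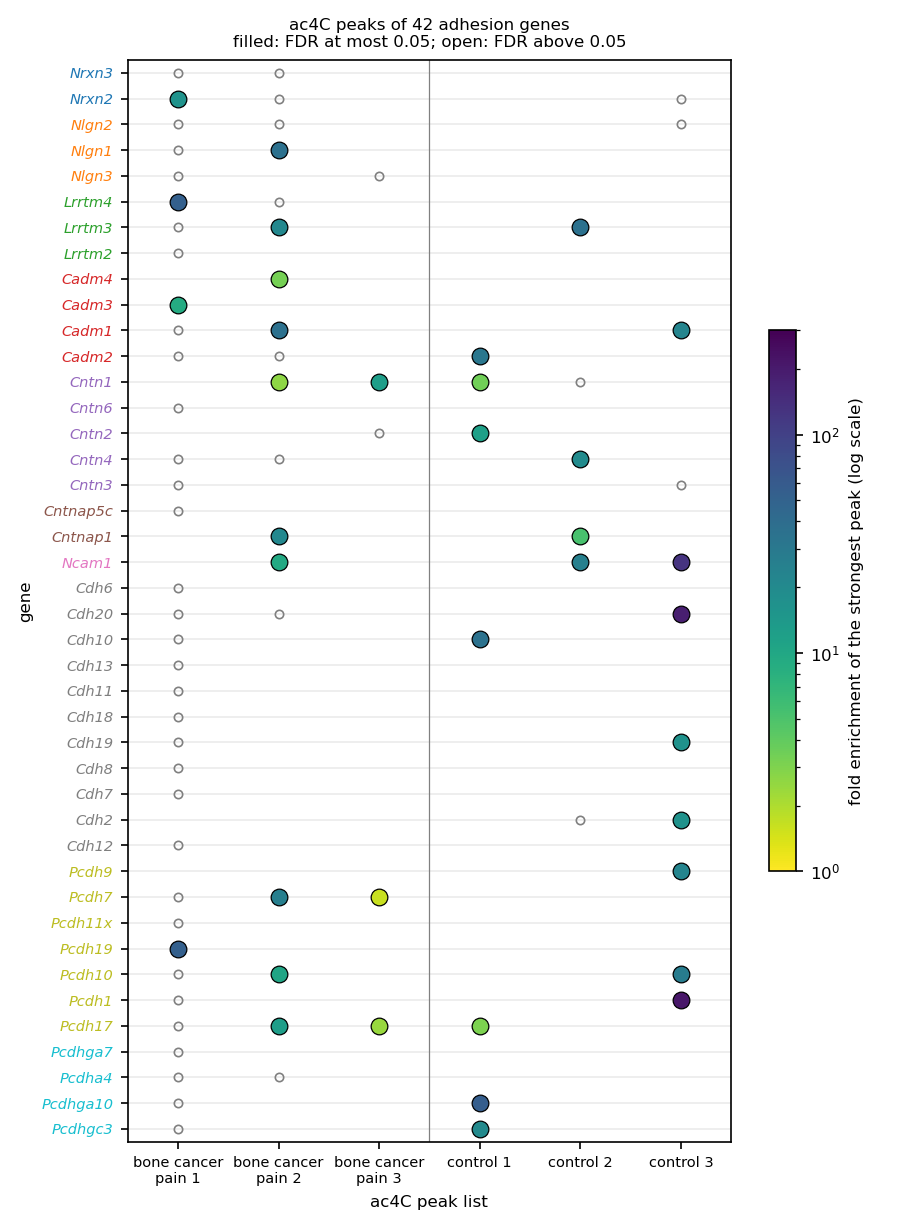
Rows are 42 genes by family and columns the 6 lists, bone cancer pain on the left; filled circles mark a peak with an FDR of at most 0.05, coloured by the fold enrichment of the peak with the smallest p-value on a log scale, and open circles a peak above that FDR. The open circles crowd bone cancer pain list 1, the cadherins have filled circles in control columns (4 genes) and none in bone cancer pain columns, and no gene is filled in more than 3 lists.

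By family, the cadherins had 0 of 11 genes with a peak at the FDR limit in the bone cancer pain lists and 4 of 11 in the control lists. Those were Cdh10 in control list 1 (fold 34.7) and Cdh19 (16.7), Cdh2 (16.7) and Cdh20 (184) in control list 3, so 3 of the 4 came from 1 list. The Cdh19 and Cdh2 peaks had the same FDR of 0.0229. At an FDR of at most 0.01 they fell away, while Cdh10 and Cdh20 kept theirs. The clustered protocadherins had 0 of 4 in bone cancer pain and 2 of 4 in controls, Pcdhga10 with a fold of 56.1 and Pcdhgc3 with a fold of 20.0, both in control list 1. Because gamma isoforms share constant exons, the assignment of the Pcdhgc3 peak to that gene is uncertain. Of the neurexins, Nrxn2 was marked in bone cancer pain list 1 (15.9), and neither Nrxn2 nor Nrxn3 had one at the limit in controls. Neuroligins had 1 of 3 in bone cancer pain, Nlgn1 in list 2 (36.6), and 0 of 3 in controls. The other protocadherins had 4 of 7 in either group, the SynCAMs 3 of 4 in bone cancer pain and 2 of 4 in controls, the contactins 1 of 5 and 3 of 5, the LRRTMs 2 of 3 and 1 of 3, and Cntnap1 and Ncam1 had a peak in both. Of all table genes 23.2% had a peak at the limit in at least 1 bone cancer pain list and 22.7% in at least 1 control list. As deposited the order of the first 2 families turned: cadherins had 10 of 11 genes marked in bone cancer pain and 4 of 11 in controls, and clustered protocadherins 4 of 4 and 2 of 4. The contactins had 5 of 5 and 4 of 5 in that reading, where all table genes had 86.7% in bone cancer pain and 31.2% in controls. These differences between families were read off the lists and not tested.

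Pcdh7 was the 1 gene of the 43 (2.33%) with peaks in every bone cancer pain list (3 of 3) but in 0 of 3 controls as deposited. That pattern was held by 0.911% of the table, and a share of 1 gene does not set the family apart. At the FDR limit 0 of the 43 held it, where 0.104% of the table did. In list 1, 81.1% of all table genes had a peak as deposited, and 97.6% of the peaks had the repeated fold of 10.6 and FDR of 0.0562. The list 1 peaks of Pcdh7 had that same FDR, with folds of 10.6 and 7.05, and did not pass the limit. At the FDR limit its peaks were chr14:55079602-55079781 in list 2 (fold 26.1, FDR 0.00102) and chr14:55080591-55080771 in list 3 (fold 1.63, FDR 0.00195), both on the minus strand of rn6. The peaks lay 809 bases apart and did not overlap, so the gene recurred and the site did not.

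Gained genes are those marked in 2 or 3 of the bone cancer pain lists but in no control list, and lost genes those with the reverse pattern. As deposited 6 of the 43 were gained (14.0%, where 11.3% of all table genes were): Pcdh7, Pcdha4, Lrrtm4, Nlgn1, Nlgn3 and Nrxn3. Cdh2 was the 1 gene lost (2.33%, where 0.738% of the table was). Its control list 2 peak (fold 4.89, FDR 0.0794) did not pass the FDR limit. It did not overlap the Cdh2 peak of control list 3 (fold 16.7, FDR 0.0229). Apart from Pcdh7, none of the gained genes had a peak at the FDR limit in more than 1 list. Lrrtm4 had a peak at chr4:110700268-110702374 in list 1 (fold 52.9, FDR 6.92e-06), and its list 2 peak had an FDR of 0.127. Nlgn1 had a peak at chr2:111059270-111059420 in list 2 (FDR 6.17e-06) and only repeated values in list 1. Nlgn3, Nrxn3 and Pcdha4 had no peak at the FDR limit in any list. Pcdha4 had 24 peaks in list 1, with 18280 exonic bases in successive blocks spread over 228692 bases of the alpha cluster. Isoforms of that cluster also share constant exons, so the assignment of these peaks is uncertain. The values under the name Pcdha4 are therefore not read as those of a single isoform. At the FDR limit 1 gene was gained, Pcdh7 (2.33%, background 1.80%), and 0 were lost (background 1.71%). These shares rest on 0 to 6 genes. As deposited, the number gained was 1 without bone cancer pain list 1, 2 without bone cancer pain list 2 and 11 without control list 3, and the number lost was 2 without bone cancer pain list 2 and 0 without control list 2 or 3.

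A peak at the FDR limit in 2 or more lists was found in 8 genes. Cntn1 had 6 such peaks, the most of any of the 43, with 2 and 3 of them in lists 2 and 3 of bone cancer pain and 1 in control list 1, spread over 128853 bases. The peak in bone cancer pain list 3 at chr7:133487690-133488003 (plus strand, fold 12.5, FDR 1e-148) shared 151 exonic bases with that in control list 1 at chr7:133487853-133491720 (fold 3.46, FDR 7.94e-28). Its other 4 peaks, with folds of 1.51 to 6.27, were each in 1 list. In this gene 1 stretch was thus marked in both groups, beside others that were not shared.

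Cntnap1, whose protein pairs with contactin 1, had 1 peak in each group at nearly the same place. In bone cancer pain list 2 it was at chr10:89097587-89098209 (plus strand, fold 20.9, FDR 0.012) and in control list 2 at chr10:89097557-89098149 (fold 5.22, FDR 0.00562), sharing 120 exonic bases over 2 exon blocks. The fold of 20.9 and FDR of 0.012 were also those of the Lrrtm3 peak in that list.

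Pcdh17 was marked in all 3 lists from bone cancer pain and in 1 control list as deposited, and in 2 and 1 at the FDR limit. The peak of bone cancer pain list 2 (chr15:67588519-67643299, plus strand, fold 12.5, FDR 3.98e-18) and that of list 3 (chr15:67588682-67643269, fold 2.41, FDR 7.94e-11) shared 180 exonic bases across the same splice junction. The control list 1 peak, chr15:67644341-67644491 (fold 3.08, FDR 0.0112), began 1041 bases beyond the end of the list 2 peak and overlapped neither. At an FDR of at most 0.01 this control peak falls away and Pcdh17 counts as gained beside Pcdh7 (2 of 43, or 4.65%, where 1.53% of the table was).

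Ncam1 had 4 peaks at the limit, 1 in bone cancer pain list 2, 2 in control list 2 and 1 in control list 3. The bone cancer pain peak at chr8:53840024-53840174 (minus strand, fold 9.51, FDR 1.58e-16) and the control list 3 peak at chr8:53839636-53839785 (fold 128, FDR 1.26e-67) lay 238 bases apart without overlap. The control list 2 peaks lay 38660 bases or more away, the stronger at chr8:53878835-53889667 (fold 25.8, FDR 1e-107). Ncam1 and Cntn1 have the 2 highest input signals of the 43 genes, 30.6 and 31.6 on average.

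The other 3 genes had 1 list in each group and, at the FDR limit, no overlap between them; all lie on the plus strand. Pcdh10, a protocadherin of synapse elimination in mice, had chr2:136994269-136994448 in bone cancer pain list 2 (fold 10.5, FDR 0.0324) and chr2:136994777-136994956 in control list 3 (fold 27.9, FDR 3.55e-05). Lrrtm3 had chr20:25993267-25993417 in bone cancer pain list 2 (fold 20.9, FDR 0.012) and chr20:25994316-25994496 in control list 2 (fold 35.9, FDR 3.98e-20). Cadm1 had chr8:52129372-52136987 in bone cancer pain list 2 (fold 36.6, FDR 6.17e-06) and chr8:52188978-52189157 in control list 3 (fold 22.3, FDR 0.000955). In each of these genes the comparison rests on 1 list per group. Over all table genes only 7.1% of segments at the limit were in 2 or more lists. Separate stretches were thus the usual case and are not read as a difference between groups.

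**Figure D4:**
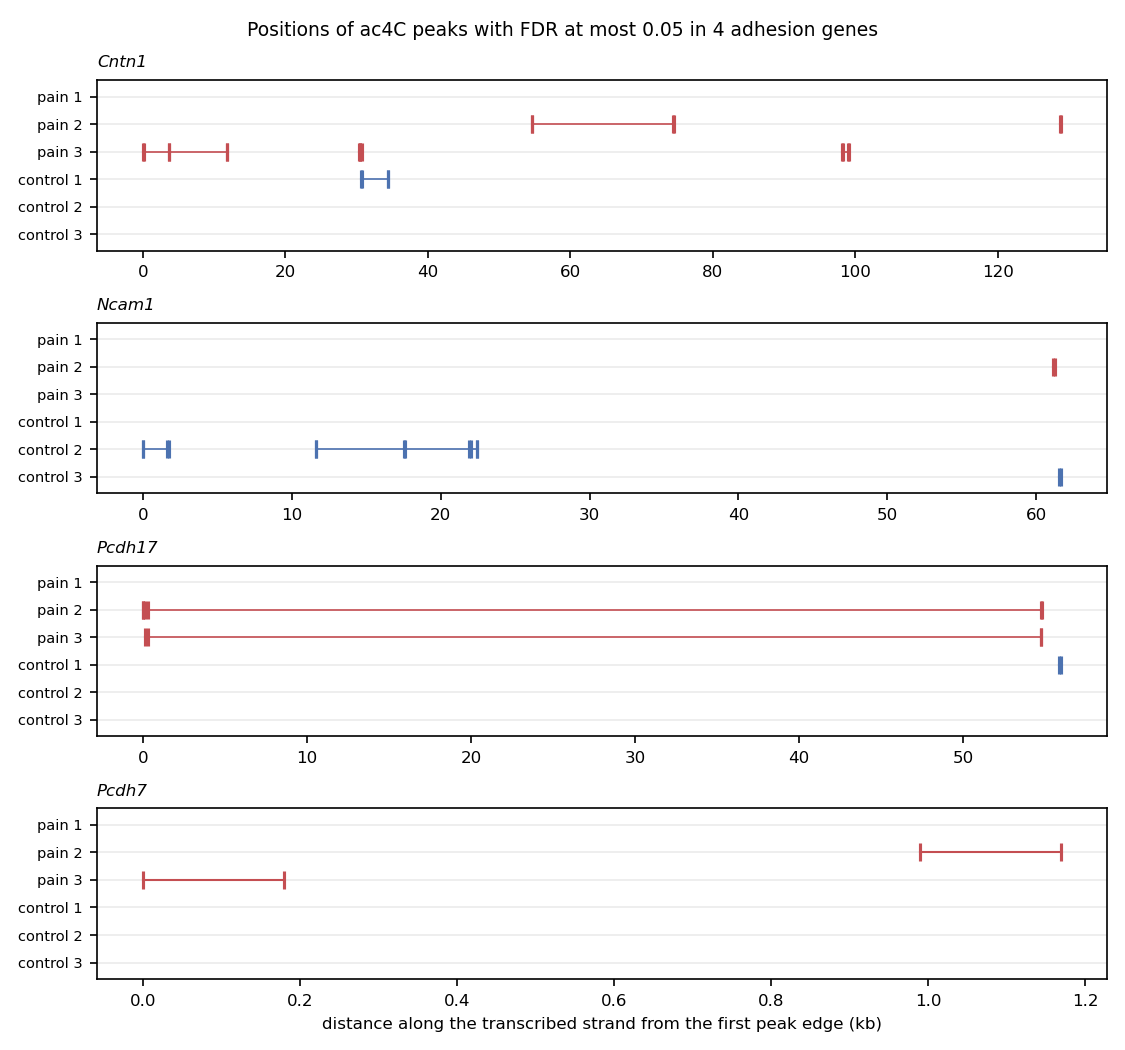
Ac4C peaks with an FDR of at most 0.05 in Cntn1, Ncam1, Pcdh17 and Pcdh7, 1 row per list (bone cancer pain in red above controls in blue); vertical ticks bound the exon blocks, thin lines join the blocks of 1 peak, and the x axis is the distance in kb along the transcribed strand from the first peak edge. Cntn1 has 1 stretch shared by bone cancer pain list 3 and control list 1, Pcdh17 shares 1 junction peak between bone cancer pain lists 2 and 3, and the 2 Pcdh7 peaks are 809 bases apart.

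Counting stretches of exon rather than genes, 38 separate segments lay at the FDR limit and 3 of them (7.89%) were in 2 or more lists, in Cntn1, Cntnap1 and Pcdh17. Over all table genes 349 of 4915 segments (7.10%) recurred, so the adhesion genes stood near the background. As deposited 14 of 193 segments recurred (7.25%), where 1445 of 25108 over all table genes did (5.76%). Of the 14, 10 were shared between the groups and 4 among bone cancer pain lists; recurring segments numbered 5 without bone cancer pain list 1, 7 without bone cancer pain list 2 and 8 without control list 3. Cdh20 had the same segment to the base in bone cancer pain list 2 and control list 3, chr13:24874125-24879312 on the plus strand, with a fold of 3.49 (FDR 0.127) in bone cancer pain and 184 (FDR 6.31e-49) in the control list. Cadm2 shared 60 exonic bases between bone cancer pain list 2 (fold 10.5, FDR 0.127) and control list 1 (fold 31.2, FDR 7.94e-41). Nrxn2 shared 31 bases between bone cancer pain list 1 (fold 15.9, FDR 1.07e-06) and control list 3 (fold 11.2, FDR 0.0617). In each of these 3 pairs 1 of the 2 peaks passed the FDR limit. Cdh19, Cntn3 and Pcdhga10 also overlapped between the groups, by 61, 180 and 31 bases, and Pcdh1 and Pcdh10 by 1 base, in each case with a bone cancer pain list 1 peak at the repeated fold of 10.6. The list 1 peaks of Pcdhgc3 lay elsewhere: its control list 1 peak at chr18:30954665-30954844 began 38552 bases beyond the last of them. Isoforms of the gamma cluster share constant exons, and transcript regions were not analysed, so the assignment of this peak to Pcdhgc3 is uncertain.

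The remaining peaks at the FDR limit were in 1 list each. Cadm3 (fold 9.12) and Pcdh19 (52.9) had theirs in bone cancer pain list 1, and Cadm4 (3.33) in bone cancer pain list 2. In controls these were Cntn2 (12.0, list 1), Cntn4 (19.6, list 2), Pcdh1 (212, list 3) and Pcdh9 (22.3, list 3). Pcdh9, the gene with the highest RIP log2 fold, was 1 of 2 genes with no bone cancer pain peak even as deposited; the other was Cdh2. No peak at the limit was found in 17 genes, which include 7 cadherins (Cdh6, Cdh7, Cdh8, Cdh11, Cdh12, Cdh13 and Cdh18), Cntn3, Cntn6, Cntnap5c, Lrrtm2, Nlgn2, Nlgn3, Nrxn3, Pcdh11x, Pcdha4 and Pcdhga7. Of the 5 highest genes by RIP log2 fold, Pcdh9, Cntn1 and Lrrtm4 had a peak at the limit and Cdh6 and Cntn6 had none.

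The partners through which these proteins act include the catenins, which tie cadherins to actin, scaffolds such as Dlg4, and other synaptic adhesion molecules. Of 59 partner genes listed, 53 are in the RIP table, with a median log2 fold of 2.44 and 27 above and 26 below the table median. As deposited 42, 17 and 11 of the 53 were marked in lists 1 to 3 of bone cancer pain, against 14, 13 and 13 in the control lists, with 4 gained (7.55%, where 11.3% of the table was) and 0 lost. At the FDR limit 12, 10 and 11 were marked in lists 1 to 3 of bone cancer pain, against 13, 8 and 10 in the control lists. At that limit 3 partners were gained (5.66%, background 1.80%) and 0 lost (background 1.71%). They were Lrrc4b, a postsynaptic ligand of receptor phosphatases, at folds of 15.3, 10.5 and 68.5 in bone cancer pain lists 1 to 3, Fyn, a kinase downstream of Ncam1 and contactins, at folds of 36.6 and 8.83 in lists 2 and 3, and the phosphatase Ptpra, at folds of 32.9 and 9.94 in lists 1 and 3. Lrrc4b also had a control peak above the FDR limit, so as deposited it was not gained. The Fyn fold of 36.6 is a repeated value of list 2, held there by Cadm1 and Nlgn1 as well.

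In all, 19 of the 53 partners (35.8%) had a peak at the limit in 2 or more lists, against 12.6% of the table. Their mean input signals ran from 3.54 (Shank3) to 36 (Epb41l3), where the table median was 3.35. The part of signal level in this share was not tested. The catenin gene Ctnna1 had 1 list in each group (fold 5.11 in bone cancer pain list 1, 12.4 in control list 1), as did Ctnnd2 (20.9 in bone cancer pain list 2, 138 in control list 1). The calsyntenin gene Clstn1 and Ptprz1, a receptor phosphatase that binds contactin 1, were the most recurrent of the 53, each in 2 bone cancer pain and 3 control lists. Dlg4, the scaffold under neuroligins, had folds of 21.2, 112 and 34.2 in the 3 bone cancer pain lists and 16.0 in control list 1. Lrrc4c had folds of 63.5 in list 1 and 1310 in list 3 of bone cancer pain, and 542 in control list 3. Epb41l3, Ptprs and the axonal adhesion gene L1cam each had 1 bone cancer pain and 2 control lists. Apba1, Epb41, Epb41l1, Kif5b, Nfasc, Ptprf and Shank3 had 1 list in each group, at folds of 2.11 to 44.2 in bone cancer pain and 5.83 to 184 in controls.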

How the data were processed

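The submitters' processing notes name the rat build rn6 and, without roles, HISAT2 2.1.0, featureCounts 1.6.3, DESeq2, HOMER 4.10.4 and cutadapt 2.5. Per the file headers, each of the 6 ac4C lists was called on 1 IP and input pair and gives exon blocks, the IP to input ratio (fold enrichment), the p-value and the log10 of that p-value and of the FDR, used here as the authors' deposited score. Per the file headers, the RIP table gives 4 normalised signal values of unstated unit, the authors' log2 fold and a p-value per gene.

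The 43 genes, their families, partners and markers were chosen with earlier results of these data known. Peaks were assigned by the Ensembl identifier in each list and counted as deposited and at an FDR of at most 0.05. Same-strand peaks with 1 bp or more of exon block in common counted as overlapping. Positions are 1-based rn6. Groups of lists were compared by exact two-sided permutation tests, which were checked on simulated data. Genes given with values are those with a peak at the FDR limit in at least 2 lists, an overlap between groups, a gain or loss, one of the 5 highest or 5 lowest RIP log2 folds, or the highest or lowest input signal of a family; the others were summarised. Of the 43 genes, 1 is counted in the totals and is not reported here by itself or drawn in the plots by gene. No test was run on the RIP, since the table was cut on that contrast. Alternatives were the FDR limits 0.05 and 0.01, equal list lengths (1173 peaks, ties in file order), leaving out each list or pair, a stricter overlap, a pseudocount of 1 and a filter on input signal. Depth is unknown, so no counting intervals are given. Transcript regions of peaks were not analysed here. Python 3.11.15, pandas 2.3.3 and numpy 2.4.6 were used.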

Additional observations from a re-analysis of the deposited data

How the results depend on the processing

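Bone cancer pain list 1 and the FDR limit set most counts. The difference in adhesion genes with a peak per list, bone cancer pain minus control, was 11.7 as deposited, -0.333 at an FDR of at most 0.05, -0.333 at 0.01 and -0.667 at equal list lengths; leaving out 1 list as deposited gave 3.5 to 19. As a share minus that of the table it was 3.04 percentage points as deposited and -0.979 points at an FDR of at most 0.05. At that limit, leaving out 1 list gave -2.33 without bone cancer pain list 2, -1.5 without control list 2, 0 without control list 1, and 0.167, 0.5 and 1.17 without bone cancer pain list 1, control list 3 and bone cancer pain list 3, so its sign was not settled. For peaks on the log2(number + 1) scale the difference was 1.74 as deposited and -0.0323 at equal list lengths, and at an FDR of at most 0.05 it was 0 with all lists, -0.333 without bone cancer pain list 2, -0.167 without control list 2 and 0.0409 to 0.167 without each of the other 4. The smallest permutation p that these numbers of lists allow is 0.1, and both differences as deposited were at it without bone cancer pain list 3 (19 and 2.7). Same-numbered lists were not paired by the data (correlations of their deviations 0.020, -0.010 and 0.042); a replicate block kept the differences of 11.7 and 1.74, with an exact sign-flip p of 0.5 for either.

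Genes gained numbered 6 as deposited, 1 at an FDR of at most 0.05, 2 at 0.01, 1 at equal list lengths, 1 when 3 lists were asked for, and 1 to 11 when 1 list was left out. Genes lost numbered 1, and 0 at both FDR limits and with 3 lists asked for, and 0 to 2 when 1 list was left out. Shared segments numbered 14, and 6 when the overlap had to cover 50% or more of the shorter peak, 3 and 2 at the FDR limits 0.05 and 0.01, 4 at equal list lengths, and 5 to 13 when 1 list was left out. The alternatives that combine the FDR limit with a left-out list or the share, and those on segments other than overlap, were chosen after seeing the data, as was equal list lengths for gained and lost genes.

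The median RIP log2 fold of 2.33 was 2.35 in pair 1 and 2.27 in pair 2 alone, 2.12 for genes with input signal at or above the table median and 1.98 with a pseudocount of 1. Its difference from the table median, -0.07, was -0.10 in either pair alone and with the pseudocount, -0.28 for genes of higher input and -0.07 beside protein-coding genes alone. The cause of these shifts was not tested.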
